A study of Mus musculus with 81 samples.

Results

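The genes described here are 10 genes of the somatic cells of the fetal mouse testis, Wt1, Gata4, Dmrt1, Nr5a1, Fshr, Cldn11, Lhcgr, Scarb1, Cyp11a1 and Hsd3b1. They were read through the long terminal repeat (LTR) loci that lie inside their gene bodies, because the tables analysed here hold reads counted at LTR repeats of mouse endogenous retroviruses and not at protein-coding exons. The members were given by name, with earlier results of these data known, and their loci were found by position, as every listed LTR locus inside the gene body of the GENCODE annotation on GRCm38. Of 24371 genes with at least 1 such locus, 9 are members, since Hsd3b1 holds none, and of 970384 loci in the tables, 138 lie inside a member. Loci of the same intron with identical values in every library were counted once, which left 112 counted loci.

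All mice carried the OG2 transgene, B6;CBA-Tg(Pou5f1-EGFP)2Mnn/J, kept on C57BL/6J, in which the Pou5f1 promoter and distal enhancer drive EGFP in the germline. F0 dams drank 50 nM tributyltin (TBT), an organotin compound known as an obesogen, or the vehicle dimethyl sulfoxide (DMSO), so that the F1 fetuses were exposed in utero, whereas the F3 fetuses descended from them without further exposure. Testes of male E18.5 fetuses were sorted by fluorescence into P4 and P5, which are EGFP-positive germline fractions that differ in side scatter, and P6, the EGFP-negative somatic fraction. The DMSO and TBT groups of F1 held 5 and 7 RNA libraries of P4, 4 and 7 of P5, and 5 and 7 of P6, and each F3 population held 4 DMSO and 5 TBT libraries, 62 in all. A further 19 libraries hold methylated DNA of P6 cells. The labels do not say whether the libraries of a group came from separate fetuses or litters, nor what the first of the paired numbers on the F1 germline libraries stands for (43, 44 and 48 in DMSO, 45 and 47 in TBT), so that the p-values below measure the spread between these libraries.

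Sertoli cells surround the germ cells in the testis cords, nurse them, and send the signals that make the gonad a testis. Leydig cells lie between the cords and turn cholesterol into androgens. Wt1, Gata4, Dmrt1 and Nr5a1 are transcription factors of the gonad, of which Nr5a1 (SF-1) is used by both Sertoli and Leydig cells and Dmrt1 by both Sertoli and germ cells. Fshr is the receptor for follicle-stimulating hormone on Sertoli cells, and Cldn11 is a claudin of their tight junctions. On the Leydig side, Lhcgr is the receptor for luteinizing hormone, Scarb1 takes up cholesterol from high-density lipoprotein, Cyp11a1 cleaves the cholesterol side chain in the first step of steroid synthesis, and Hsd3b1 belongs to the enzymes that convert pregnenolone into progesterone.

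Between 2824806 and 6304053 reads per F1 library were counted at LTR loci, and between 246520 and 8161548 per F3 library. The lowest 4 F3 libraries are all of germline cells and held fewer than 2000000 reads. Of these, TBT replicate 5 of P4 (833449 reads) and TBT replicate 5 of P5 (246520 reads) held no read at any member locus, and TBT replicate 9 of P4 (1187234 reads) held reads in Dmrt1 (4) and Lhcgr (20) alone. These 4 libraries held a read in 4562 to 10238 genes, whereas the other F3 germline libraries held one in 11075 to 19112. Germ cell genes were low in the same libraries and in 1 more. Their summed level, in reads relative to library size (CPM) per counted locus, was 140 and 293 in TBT replicates 5 and 9 of F3 P4 and 1520 to 1916 in the other F3 P4 libraries. In F3 P5 it was 369 and 240 in DMSO replicates 1 and 2 and 15.9 in TBT replicate 5, against 1003 to 1309 in the others. DMSO replicate 1 of F3 P5 held 2017404 reads. In the comparison of P6 with the F3 germline, counts and log2 differences are also given without the 4 or the 5 libraries, both choices made after seeing the data. In F1 P6, TBT replicates 7 and 8 held a read in 16984 and 17106 genes, against 12457 to 14684 in the other libraries. Of their reads, 92.8% and 92.6% lay at loci inside genes, against 97.7% to 98.6% in the others.

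Of the 138 loci, 133 lie in introns and 5 in annotated exons of the member, and they belong to 66 of the 680 repeat species that RepeatMasker names in the tables. Only 2 loci, both in Lhcgr, held no read in any of the 62 libraries. Loci of the same intron were close to each other in reads although they belong to different repeat species. Of 17 introns with at least 2 counted loci, the loci of 15 shared over 90% of their reads, with values between 93.0% and 99.9%. The shared reads are those of the lowest locus in each library, summed over the libraries and given as a percent of the mean locus total. How reads that span an intron were counted is not given in the sources used here, and it was not tested whether a read lies within the repeat.

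Intron 3 of Dmrt1 is shown first, because its 4 loci carried nearly equal read totals with unlike sequences. Dmrt1 lies at chr19:25505618-25604329 on the plus strand. Summed over the 62 libraries, MT2B at chr19:25550835-25550959 held 3324 reads, ORR1D2 at chr19:25551264-25551551 held 3326, and the ORR1E pieces at chr19:25559589-25559634 and chr19:25559664-25559838 held 3329 each. The longest run of bases that any pair of them shares is 6 to 9 bases long, and the 9 bases shared by MT2B and the second ORR1E piece are in capitals. All sequences below are from RefSeq, build GRCm38.p6, plus strand.
Dmrt1 MT2B: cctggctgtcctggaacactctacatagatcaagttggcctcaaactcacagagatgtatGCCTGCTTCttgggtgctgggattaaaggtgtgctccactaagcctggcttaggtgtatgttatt
Dmrt1 ORR1D2: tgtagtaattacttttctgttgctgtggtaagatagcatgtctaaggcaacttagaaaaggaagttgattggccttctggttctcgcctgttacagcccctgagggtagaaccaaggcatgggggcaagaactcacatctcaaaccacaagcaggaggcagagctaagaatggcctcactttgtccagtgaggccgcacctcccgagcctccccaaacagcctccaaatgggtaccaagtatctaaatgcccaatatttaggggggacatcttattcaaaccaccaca
Dmrt1 ORR1E, first piece: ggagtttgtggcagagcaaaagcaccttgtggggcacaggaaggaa
Dmrt1 ORR1E, second piece: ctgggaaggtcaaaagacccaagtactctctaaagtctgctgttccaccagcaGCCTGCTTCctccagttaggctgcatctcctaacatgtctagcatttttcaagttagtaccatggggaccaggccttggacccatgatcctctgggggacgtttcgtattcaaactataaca

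The same held in Gata4, at chr14:63198922-63271692 on the minus strand, where MLT1A0 at chr14:63216700-63216778 and RLTR51A_Mm at chr14:63233269-63233333 lie in intron 4 and held 6433 and 6431 reads. These sequences are shown because the loci are far apart along the intron and share at most 7 bases, given in capitals.
Gata4 MLT1A0: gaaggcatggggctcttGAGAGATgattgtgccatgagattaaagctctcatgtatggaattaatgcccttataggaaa
Gata4 RLTR51A_Mm: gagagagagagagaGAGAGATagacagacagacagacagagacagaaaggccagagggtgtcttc

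In Nr5a1, at chr2:38692656-38714542 on the minus strand, the counted locus of intron 5 held 5151 reads and that of intron 7 held 4958. The sequences of ORR1B2 (intron 5, chr2:38706058-38706199) and MT2_Mm (intron 7, chr2:38698483-38698513) are shown because the totals are close although the latter is only 31 bases long.
Nr5a1 ORR1B2: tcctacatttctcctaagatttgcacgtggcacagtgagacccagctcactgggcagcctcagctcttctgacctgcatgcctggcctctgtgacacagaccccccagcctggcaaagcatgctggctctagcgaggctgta
Nr5a1 MT2_Mm: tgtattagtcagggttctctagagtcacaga

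Wt1, at chr2:105126529-105173616 on the plus strand, and Cldn11, at chr3:31149920-31164324 on the plus strand, are shown as the sparse members. The 3 loci of Wt1 intron 5 held 181 (MLT1K, chr2:105150846-105150894), 217 (MLT1D, chr2:105155854-105156032) and 197 reads (MLT1D, chr2:105156345-105156432) and shared 89.7% of them. The single Cldn11 locus, RMER17B2 in intron 2 at chr3:31155296-31155378, held 30 reads in 21 of the 62 libraries.
Wt1 MLT1K: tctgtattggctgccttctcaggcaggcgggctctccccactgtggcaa
Wt1 MLT1D, first piece: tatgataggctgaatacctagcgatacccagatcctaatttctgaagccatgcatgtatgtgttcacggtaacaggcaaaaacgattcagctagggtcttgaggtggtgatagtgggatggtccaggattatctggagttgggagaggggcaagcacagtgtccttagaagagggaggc
Wt1 MLT1D, second piece: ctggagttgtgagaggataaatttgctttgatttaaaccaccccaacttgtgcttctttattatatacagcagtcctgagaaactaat
Cldn11 RMER17B2: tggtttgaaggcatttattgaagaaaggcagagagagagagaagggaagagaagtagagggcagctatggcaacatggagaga

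**Figure D1:**
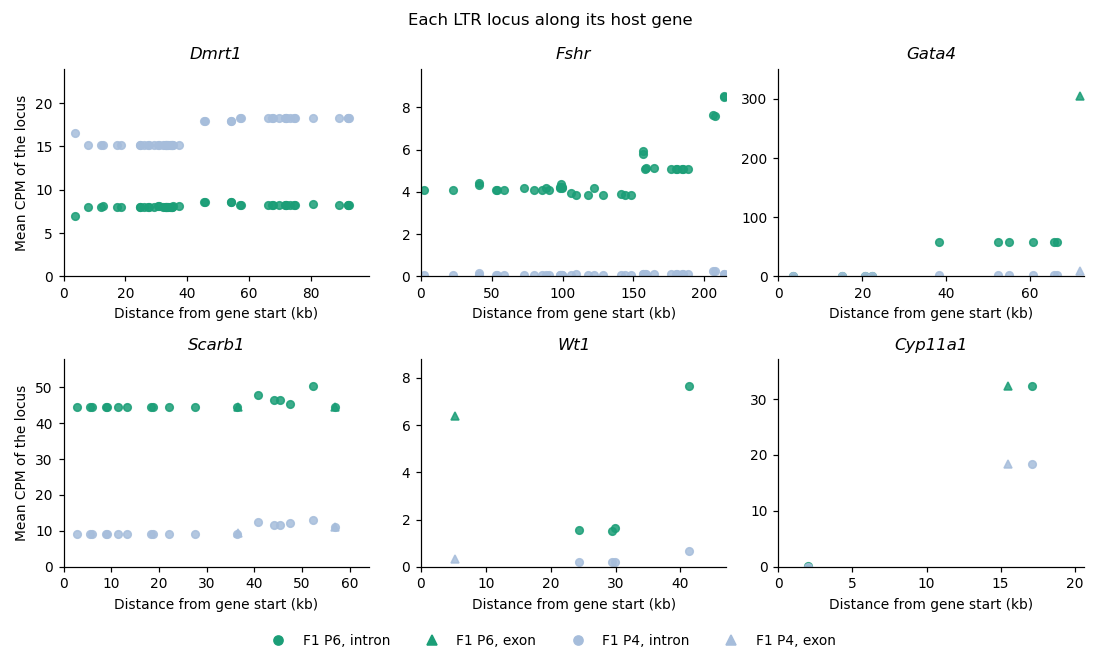
Mean CPM of each LTR locus (vertical axis, scaled over all 62 libraries) along 6 members, with the distance from the gene start in kb on the horizontal axis, for F1 P6 and F1 P4 cells. Triangles stand for loci in annotated exons, and the loci of 1 intron form level steps, such as those of the 4 Dmrt1 introns, where P4 lies above P6.

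Within Dmrt1 the level differed little between introns. The mean locus total was 3047 reads in intron 1, 2905 in intron 2, 3327 in intron 3 and 3059 in intron 4. Intron 2 alone holds 25 loci (16 counted) of 14 species over 29721 bp, with totals between 2898 and 2938. Intron 4 holds 17 loci (16 counted) of 13 species over 35681 bp, with totals between 3051 and 3111.

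In Fshr, at chr17:88984952-89200675 on the minus strand, the mean locus total was higher towards the 3′ end, with 385 reads in intron 1, 399 in intron 2, 516 in intron 4, 738 in intron 8 and 772 in intron 9. In F1 P6 cells the corresponding mean levels were 4.20, 3.94, 5.42, 7.62 and 8.54 CPM, that is, reads relative to the size of the library, scaled over all 62 libraries. Its loci number 40, of which 28 were counted.

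Gata4 held the widest range between loci of 1 gene. Its intron 2 loci held 14 to 55 reads and shared 3.48% of them, whereas the mean totals in introns 4 and 5 were 6435 and 6448. LTR103b_Mam at chr14:63199746-63199900 overlaps an untranslated exon of annotated Gata4 transcripts and held 33318 reads, so that reads there can be those of the spliced transcript. Its mean level was 305 CPM in F1 P6 and 312 CPM in F3 P6, against 9.52 CPM in F1 P4 and 18.3 CPM in F1 P5.

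Scarb1, at chr5:125277087-125341094 on the minus strand, carried reads in 8 introns, with mean locus totals of 5706 to 6744. The locus with the most reads was MER68 in intron 11 (chr5:125288696-125288969, 6744 reads). LTR67B (chr5:125284145-125284193, 6048 reads) and ORR1C2 (chr5:125304471-125304633, 5742 reads) overlap exons of non-coding Scarb1 transcripts. Another annotated gene, Gm42633, overlaps 1 of the 20 Scarb1 loci (MTD in intron 3, chr5:125318849-125319075), and reads of the pair cannot be told apart there.

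In Cyp11a1, at chr9:58006411-58027023 on the plus strand, 2 of the 3 loci carried nearly all reads. MLT1B at chr9:58021778-58021978, in an exon of a retained-intron transcript of the gene, held 3615 reads and MLTR73 in intron 6 held 3594, against 34 for the locus of intron 1. Cyp11a1 is thus read through 1 short stretch of the gene.

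The other members were read as follows. Lhcgr, at chr17:88716481-88791990 on the minus strand, holds 7 counted loci, of which MTD in intron 1 (chr17:88777782-88778095) held the most reads, 220. Nr5a1 was led by MTC in intron 5 (chr2:38703495-38703902, 5151 reads), Wt1 by ORR1E in intron 7 (chr2:105167639-105168002, 975 reads) and Fshr by RMER17C in intron 9 (chr17:88986421-88986732, 774 reads). Hsd3b1, at chr3:98852194-98859794 on the minus strand, holds no LTR locus and has no value here.

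The first comparison asked how the members were distributed between somatic and germline cells. Because the somatic and germline values stand in separate tables, whole reads were recovered and scaled together. Levels in this section are given as CPM per counted locus, scaled over all 62 libraries, so that a read crossing several loci does not raise the level of a gene with many loci. The level of a gene still depends on where its loci lie, and levels were therefore compared between cells and not between genes. Population and table cannot be told apart in either generation, and in F1 the P6 libraries carry other replicate numbers than the germline libraries.

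In F1, 6 of the 8 members tested were higher in P6 than in P4, and the same number than in P5, at a false discovery rate (FDR) under 0.05 with limma, adjusted over all genes tested. Those called higher were Wt1, Gata4, Nr5a1, Fshr, Scarb1 and Cyp11a1 each time, and all 8 reached the filter on low values in P4 and in P5 as well. In F3, Wt1, Nr5a1 and Fshr did not reach that filter in P4, nor Nr5a1 in P5, and entered the test only through P6, where they are high. Of the other 5 members, Gata4, Scarb1 and Cyp11a1 were higher than in P4, and of the other 7, Wt1, Gata4, Fshr, Scarb1 and Cyp11a1 were higher than in P5. Fitted with no filter, so that no member entered through P6, the F3 calls were 6 of 9 members against P4 and 6 of 9 against P5, all higher, beside 36.5% and 39.9% of all genes called in either direction. For comparison, 35.4% of all genes tested were higher in P6 than P4 and 30.2% higher in P6 than P5 in F1, against 26.5% and 19.8% in F3. All such shares include genes that entered through P6 alone. The F3 member counts made with the filter leave such members out, so that the sets differ. Dmrt1 was lower in P6 than in P4 and P5 of F1, where 47.3% and 51.7% of all genes were lower, and no member was lower in F3, where 23.6% and 29.8% were. The median log2 difference of the members in F1 was 3.17 (P6 against P4) and 2.77 (P6 against P5), whereas that of all genes was -0.36 and -0.58. Without the 4 F3 germline libraries under 2000000 reads, 5 of 7 members that reached the filter in P4 were higher against P4 and 7 of 8 against P5, Lhcgr among them, beside 30.5% and 23.8% of all genes higher. Without DMSO replicate 1 of P5 as well, 5 of 7 were higher against P4 and 6 of 8 against P5, beside 32.3% and 21.3% of all genes higher. Wt1 did not reach the filter in P4 in either case. The log2 differences from P4 and P5 were then 4.38 and 3.27 for Wt1, 7.04 and 5.14 for Gata4, 6.72 and 6.30 for Nr5a1, and 7.16 and 3.77 for Fshr. The comparisons with P4 and with P5 share the P6 libraries. In these bulk samples, fewer cells of a type and less RNA per cell cannot be told apart.

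**Figure D2:**
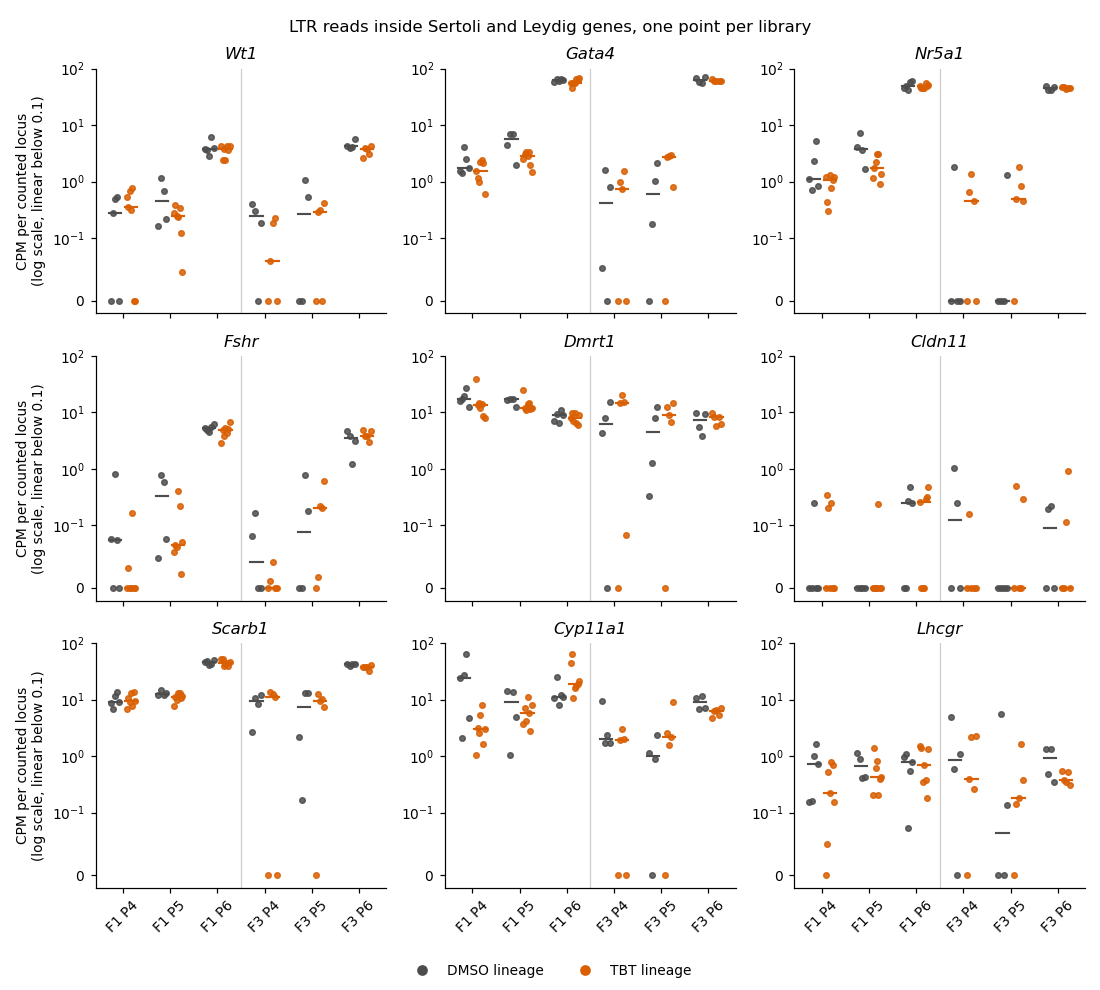
CPM per counted locus of each member in each of the 62 libraries (vertical axis, logarithmic and linear below 0.1, scaled over all libraries) by population and generation, with bars at the medians. The P6 libraries of Wt1, Gata4, Nr5a1, Fshr and Scarb1 lie above all germline libraries, whereas those of Cyp11a1 and Lhcgr lie among them and those of Dmrt1 lie below the F1 P5 libraries. How many of all genes lie apart in this way was not counted.

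Gata4, a zinc finger factor of Sertoli, Leydig and other somatic gonadal cells, ranged from 46.2 to 67.4 CPM per counted locus (median 61.6) in the 12 F1 P6 libraries. It ranged from 0.604 to 4.02 (median 1.65) in F1 P4 and from 1.47 to 6.88 (median 3.07) in F1 P5. In F3 the range was 55.1 to 70.2 (median 60.0) in P6, 0 to 1.61 (median 0.749) in P4 and 0 to 2.91 (median 1.02) in P5. The P6 libraries thus stood apart from all germline libraries in both generations, whereas P4 and P5 overlapped. For Gata4 and the members below, the share of all genes that stand apart in this way was not counted. Nothing is therefore read from the separation about the members in particular. Relative to the germline, the log2 difference of P6 was 5.17 (SE 0.21) against P4 and 4.24 (SE 0.21) against P5 in F1, and 8.17 (SE 1.11) and 6.90 (SE 1.11) in F3.

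Nr5a1 showed the same order. Its level was 42.3 to 60.1 CPM per counted locus (median 48.7) in F1 P6, 0.306 to 5.27 (median 1.08) in F1 P4 and 0.907 to 7.25 (median 2.25) in F1 P5. In F3 it was 42.1 to 48.5 (median 45.8) in P6, whereas the median was 0 in P4 (highest 1.78) and 0.446 in P5 (highest 1.84). No germline library reached the lowest P6 library. On the log2 scale P6 was above P4 by 5.38 (SE 0.27) and above P5 by 4.32 (SE 0.28) in F1, and by 7.26 (SE 0.71) and 6.99 (SE 0.71) in F3, where it entered the test through P6 alone.

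Wt1, needed for the supporting cells of the gonad, ranged from 2.37 to 6.12 CPM per counted locus (median 3.77) in F1 P6, from 0 to 0.758 (median 0.332) in F1 P4 and from 0.0454 to 1.16 (median 0.245) in F1 P5. In F3 P6 it ranged from 2.65 to 5.71 (median 3.88), with medians of 0.183 in P4 (highest 0.404) and 0.292 in P5 (highest 1.05). P6 did not overlap with P4 or P5, which overlapped with each other. As a log2 difference, P6 was higher by 4.06 (SE 0.47) and 3.50 (SE 0.48) against P4 and P5 in F1, and 4.76 (SE 0.70) and 4.50 (SE 0.70) in F3, the former with Wt1 under the filter in P4.

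Fshr had the largest F1 difference among the members. Its level was 2.91 to 6.80 CPM per counted locus (median 4.99) in F1 P6, whereas 7 of the 12 F1 P4 libraries held no read and the highest reached 0.803. In F1 P5 it ranged from 0.0216 to 0.791 (median 0.0730). The F3 P6 range was 1.20 to 4.95 (median 3.87), with a median of 0 (highest 0.163) in P4 and 0.178 (highest 0.775) in P5. As for Wt1, the P6 libraries did not overlap with germline libraries. Log2 differences of P6 were 7.37 (SE 0.60) and 5.15 (SE 0.62) against P4 and P5 in F1, and 7.34 (SE 0.92) and 5.57 (SE 0.92) in F3, the former with Fshr under the filter in P4.

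Scarb1 was read in the germline at a larger share of its P6 level than Gata4 or Nr5a1. It ranged from 38.7 to 52.0 CPM per counted locus (median 44.7) in F1 P6, from 6.91 to 13.6 (median 9.32) in F1 P4 and from 7.67 to 14.7 (median 12.002) in F1 P5. In F3 it ranged from 32.1 to 42.96 (median 38.7) in P6, from 0 to 13.6 (median 10.7) in P4 and from 0 to 13.2 (median 9.59) in P5. P6 did not overlap with P4 or P5, which overlapped with each other, and every F1 germline library held reads. P6 was higher by a log2 difference of 2.27 (SE 0.11) and 2.03 (SE 0.12) against P4 and P5 in F1, and 4.04 (SE 1.39, FDR 0.0176) and 3.80 (SE 1.39, FDR 0.0256) in F3. With the DMSO libraries or the TBT libraries of F3 alone, the comparison with P4 did not pass the threshold (FDR 0.080 and 0.066), and with the TBT libraries alone that with P5 did not (FDR 0.21), nor did it without DMSO replicate 2 of P5 (FDR 0.072). Without the 4 libraries of fewest reads the F3 differences were smaller, at 2.08 and 2.26, and passed, as they did at 2.04 and 1.80 without DMSO replicate 1 of P5 as well.

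The mean germline level as a percent of the mean P6 level set the members side by side. In F1 the percentages for P4 and P5 were 3.09% and 5.87% for Gata4, 2.77% and 5.50% for Nr5a1, 1.95% and 4.46% for Fshr and 8.80% and 9.40% for Wt1. Those of Scarb1 were 22.2% and 26.0%, those of Cyp11a1 56.6% and 32.0%, those of Lhcgr 65.3% and 81.1%, and those of Dmrt1 206% and 183%. In F3, Gata4 stood at 1.03% and 2.26%, Nr5a1 at 1.04% and 1.20%, Fshr at 0.899% and 6.06%, Wt1 at 3.84% and 7.29% and Scarb1 at 20.3% and 19.5%. Cyp11a1 stood at 33.8% and 30.2%, Lhcgr at 208% and 144%, and Dmrt1 at 117% and 96.2%. Without the 5 F3 libraries these were 1.32% and 3.35% for Gata4, 1.34% and 1.80% for Nr5a1, 1.16% and 9.09% for Fshr, 4.94% and 10.9% for Wt1 and 26.1% and 28.2% for Scarb1. They were 43.4% and 42.8% for Cyp11a1, 216% and 66.4% for Lhcgr, and 150% and 141% for Dmrt1, so that Lhcgr in P5 and Dmrt1 in P5 lay on the other side of the P6 mean.

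Some of these means were carried by 1 library. Without DMSO replicate 2 of F3 P5 the Lhcgr percentage there was 49.8%, and without DMSO replicate 1 of F3 P4 that of Lhcgr was 135% and that of Cyp11a1 21.6%. The Cyp11a1 percentage was 34.8% in F1 P4 without DMSO replicate 44-3 and 18.3% in F3 P5 without TBT replicate 9. That of Fshr was 0.643% in F1 P4 without DMSO replicate 44-1, and without DMSO replicate 2 of F3 P4 it was 0.457%, with Nr5a1 at 0.679%. With 1 library left out, that of Dmrt1 in F3 ranged from 96.5% (without TBT replicate 7) to 131% in P4 and from 83.4% to 108% (without TBT replicate 5) in P5.

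Dmrt1 was the only member called lower in P6. In F1 it ranged from 5.96 to 10.8 CPM per counted locus (median 8.43) in P6, from 7.83 to 39.5 (median 14.1) in P4 and from 11.2 to 25.2 (median 13.8) in P5. P6 and P5 did not overlap, whereas P6 and P4 did. The log2 difference of P6 was -0.88 (SE 0.18, FDR 3.87e-05) against P4 and -0.76 (SE 0.19, FDR 0.00038) against P5. The highest germline libraries were those of TBT replicate 45-3, in both P4 and P5.

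In F3, Dmrt1 ranged from 3.75 to 9.85 CPM per counted locus (median 8.31) in P6, from 0 to 20.6 (median 7.89) in P4 and from 0 to 14.8 (median 7.79) in P5. The germline ranges enclosed the P6 range. The log2 differences of 2.46 (SE 1.63, FDR 0.21) against P4 and 1.49 against P5 did not pass the threshold, and they were 0.62 and 0.34 without the 4 libraries of fewest reads, and 0.59 and -0.49 without DMSO replicate 1 of P5 as well. Against P4 the sign was opposite to that of the means, with P4 at 117% of P6, and at 150% without the 5 libraries. Libraries at or near 0 weigh more on the log scale than in a mean. DMSO replicate 3 of P4 held no read in Dmrt1 and 600 in Scarb1. Whether Dmrt1 differed between F1 and F3 was not tested.

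Cyp11a1 spread over a wide range within populations. In F1 it ranged from 7.98 to 63.2 CPM per counted locus (median 16.7) in P6, from 1.03 to 64.0 (median 3.96) in P4 and from 1.05 to 14.0 (median 5.87) in P5. In F3 it ranged from 4.68 to 11.4 (median 6.72) in P6, with medians of 1.92 in P4 (highest 9.61) and 1.60 in P5 (highest 9.22). All groups overlapped. The log2 difference of P6 was 1.48 (SE 0.46, FDR 0.0035) and 1.68 (SE 0.47, FDR 0.0016) against P4 and P5 in F1, and 2.48 (SE 0.89, FDR 0.0224) and 2.84 (SE 0.89, FDR 0.0103) in F3. Without the 4 libraries of fewest reads the F3 differences were 1.53 and 1.84, and without DMSO replicate 1 of P5 as well 1.48 and 1.76, all past the threshold.

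The F1 call of Cyp11a1 rested on the TBT libraries. With DMSO libraries alone, the log2 difference of P6 was -0.02 (FDR 0.98) against P4 and 1.17 (FDR 0.25) against P5, whereas with TBT libraries alone it was 3.07 and 2.16, both past the threshold. In F3, neither the DMSO libraries (1.69) nor the TBT libraries (3.26) alone passed against P4, and against P5 the DMSO libraries passed and the TBT libraries did not (FDR 0.28).

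Lhcgr and Cldn11 did not separate the populations. Lhcgr ranged from 0.0760 to 1.50 CPM per counted locus (median 0.747) in F1 P6, from 0 to 1.62 (median 0.375) in F1 P4 and from 0.202 to 1.39 (median 0.422) in F1 P5. The log2 difference was 0.84 (SE 0.51, FDR 0.12) against P4 and 0.18 (SE 0.52) against P5 in F1, and 0.18 (SE 1.04) and 1.47 (SE 1.04) in F3, none of which passed. Against F3 P5 it passed at 2.01 (FDR 0.030) without the 4 libraries of fewest reads but not without DMSO replicate 1 of P5 as well (1.82, FDR 0.072), and against F1 P4 at 1.16 (FDR 0.0316) without DMSO replicate 2 of P6. In F3, medians of 0.489, 0.580 and 0.139 stood in P6, P4 and P5, with single libraries up to 4.94 in P4 and 5.60 in P5. The F3 means, at 208% of P6 in P4 and 144% in P5, were opposite in sign to the log2 differences with all libraries. Cldn11 did not exceed 1.02 CPM in any library on this scale and did not reach the filter. Fitted with no filter it was higher than in F1 P5 by 0.65 (FDR 0.013, beside 64.1% of all genes called in either direction) and did not pass in the other 3 comparisons.

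Single loci followed their genes. Of 96 counted member loci tested in F1, 59 were higher in P6 than in P4 and 37 lower, and the same numbers held against P5. For comparison, 39.6% and 35.4% of all loci tested were higher and 45.4% and 45.3% lower. The 37 lower loci were the 37 counted loci of Dmrt1. Of the higher ones, the 28 loci of Fshr and 2 of Wt1 did not reach the filter on low values in P4 or in P5 and were tested only because P6 was high, so that nothing is read from their direction. The 7 loci tested of Gata4, 2 of Nr5a1, 18 of Scarb1 and 2 of Cyp11a1 reached it in the germline too, and were higher in P6. In F3, 47 of 88 loci tested were higher than in P4, and 47 higher than in P5, with none lower, beside 34.6% and 31.3% of all loci higher and 19.2% and 21.9% lower. Here 26 of the 88 were tested only because P6 was high, and of the other 62, 21 were higher in each comparison. Without the 5 F3 libraries, 22 of 61 loci that reached the filter in P4 were higher than in P4 and 27 of 64 that reached it in P5 higher than in P5, with 0 lower, beside 40.9% and 30.3% of all loci higher. The shares of all loci include loci tested only because P6 was high, so that counts limited to the germline filter have no like share beside them. These loci share reads and are not separate measurements.

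**Figure D3:**
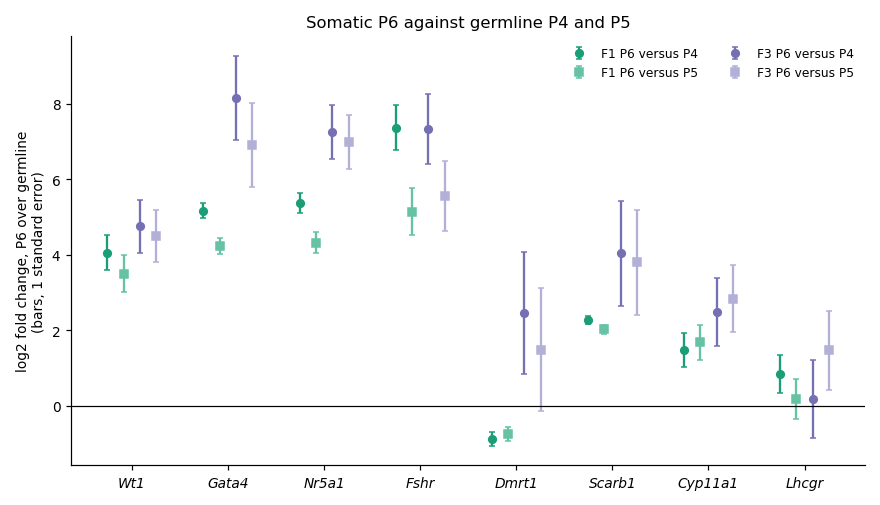
Log2 difference of P6 from P4 and from P5 (vertical axis) for the 8 members tested (horizontal axis) in F1 and F3, with 1 standard error as bars. The values of Wt1, Gata4, Nr5a1 and Fshr lie between 3.50 and 8.17, and Dmrt1 lies at -0.88 and -0.76 in F1. In F3, Wt1, Nr5a1 and Fshr against P4 and Nr5a1 against P5 entered through P6 alone.

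Lists of other genes of each cell type were read in the same way in each fraction. Only genes that reached the filter in the germline fraction are counted here. Of 20 other Sertoli genes, 6 of 7 were higher in P6 than in P4 and 1 lower in F1, and 8 of 9 higher and 1 lower than in P5. In F3, 5 of 6 were higher than in P4 and 6 of 7 higher than in P5, with 0 lower. Of 18 genes of Leydig cells and steroid synthesis, 12 of 13 were higher and 0 lower than in P4 of F1, and 8 of 13 higher and 2 lower than in P5. The F3 counts were 5 of 10 higher and 1 lower against P4 and 7 of 13 higher and 1 lower against P5. Without the 5 F3 libraries, 6 of 7 Sertoli genes were higher against P4 and 7 of 8 against P5, with 1 lower each. Of the Leydig genes, 8 of 11 were then higher and 1 lower against P4 and 8 of 13 higher and 0 lower against P5. Inha, the inhibin alpha subunit and 1 of the Sertoli genes, was at 422 CPM per counted locus (SD 53.8) in F1 P6 and 11.3 in F1 P4. Fdx1, of the Leydig and steroid list, went another way, at 37.5 (SD 17.1) in F1 P6 and 38.2 (SD 7.44) in F1 P4. In F3 it was at 25.8 (SD 4.02) in P6 and 105 (SD 53.6) in P4.

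Markers of other cell types were measured beside these. The summed level of the germ cell genes was 1379 to 1705 CPM per counted locus in F1 P4, 1019 to 1438 in F1 P5 and 1.61 to 3.30 in F1 P6. The peritubular and interstitial list summed to 516 to 805 in F1 P6 and 20.6 to 51.2 in F1 P4. The endothelial list summed to 3.59 to 9.53 in F1 P6, 2.52 to 4.58 in F1 P4 and 3.41 to 8.27 in F1 P5. The macrophage and blood list summed to 2.54 to 4.40, 2.68 to 4.71 and 3.26 to 4.98 in the same order. The sums of both lists overlapped between the F1 populations, but their genes went opposite ways. Cdh5, the endothelial cadherin, had a mean of 5.37 in F1 P6 and 0.253 in F1 P4, whereas Flt1, a VEGF receptor, had 0.0897 and 1.53. In the macrophage and blood list, Ptprc (CD45) had 0.780 and 0.0666 and Cx3cr1 had 1.25 and 3.12 in P6 and P4. The Sertoli list summed to 719 to 1270 in F1 P6, 8.66 to 74.2 in F1 P4 and 27.7 to 215 in F1 P5, so that Sertoli genes were read in germline libraries at levels that varied from library to library.

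For each member, the gene with the most similar pattern over the 62 libraries was found by Pearson's r of log2 levels among 14957 genes. The pairs were Gata4 and Aurkb (r = 0.97), Nr5a1 and Capn2 (0.96), Fshr and Sparc (0.92), Wt1 and Amhr2 (0.90), Dmrt1 and Etv6 (0.93), Cyp11a1 and Alg5 (0.85), and Lhcgr and 1110002L01Rik (0.66). For Scarb1 it was Rbbp7 (0.98). The libraries share population, table and depth, and the coefficients are a description. Amhr2, the receptor for anti-Müllerian hormone, is a Sertoli gene of the lists used here.

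The next comparison asked whether the members differed between TBT and DMSO offspring within a population. None of them passed an FDR of 0.05 with limma in any of the 6 populations, with 0 of 8 members tested called in F1 P4, F1 P5, F1 P6 and F3 P6, 0 of 5 in F3 P4 and 0 of 6 in F3 P5. At an unadjusted p under 0.05 the numbers were 1 (F1 P4), 2 (F1 P5), 1 (F1 P6), 2 (F3 P6), 0 (F3 P4) and 0 (F3 P5), and the shares of all genes tested at that p were 6.90%, 8.11%, 4.81%, 8.54%, 1.91% and 1.05%. Of all genes tested, 0.0256% were called in F1 P6 and 0.00834% in F3 P6, and 0.0% in the other populations. The DMSO and TBT groups of every member overlapped in every population. How many of all genes overlapped in this way was not counted, so that this is a description of the members only.

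**Figure D4:**
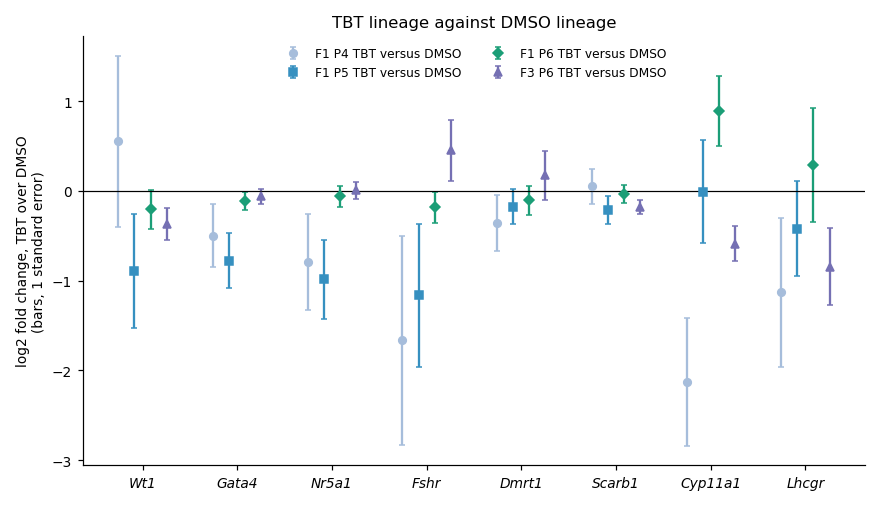
Log2 difference of TBT from DMSO (vertical axis) for the 8 members tested (horizontal axis) in F1 P4, P5 and P6 and in F3 P6, with 1 standard error as bars. Cyp11a1 lies at -2.12 in F1 P4, at 0.89 in F1 P6 and at -0.59 in F3 P6, and no value passed the threshold.

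Cyp11a1 had the smallest unadjusted p-values in F1 P4 and in P6 of both generations. Values from here on are deposited CPM per counted locus, on the scale of each table. In F1 P4 its level was 22.5, 1.96, 25.4, 58.3 and 4.57 in DMSO replicates 43-4, 43-5, 44-1, 44-3 and 48-4, and 0.996 to 7.60 (median 2.90) in the 7 TBT libraries. The 3 highest DMSO libraries lay above all TBT libraries, and the other 2 lay among them. The log2 difference of TBT from DMSO was -2.12 (SE 0.71, FDR 0.71), and the means were 22.6 ± 22.5 (SD, n = 5) and 3.38 ± 2.25 (SD, n = 7). The likelihood ratio test of edgeR, the study's own test, called it on the recovered reads, with FDR 0.036, beside 0.0964% of all genes (13 of 13487) called by that test. The same 3 DMSO libraries (43-4, 44-1 and 44-3) were also high in 3 lists named for somatic cells, whose sums stand on the scale over all 62 libraries. The other Sertoli genes summed to 46.5, 65.0 and 74.2 in them, against 12.5 and 14.9 in the other 2 DMSO libraries and 8.66 to 28.3 in TBT. The list of Leydig cells and steroid synthesis summed to 98.3, 112 and 130, against 57.4 and 69.7 in the other DMSO libraries and 49.3 to 82.8 in TBT, and the peritubular and interstitial list to 35.6, 47.6 and 51.2, against 26.8 and 29.5 and 20.6 to 32.7. Fdx1, with a mean of 38.2 in F1 P4 and 37.5 in F1 P6, counts in the Leydig and steroid sum, which is thus not one of somatic genes alone. The part of these lists in the Cyp11a1 difference was not tested.

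In F1 P5, by contrast, Cyp11a1 did not separate the groups, with 12.4, 0.934, 11.5 and 4.54 in DMSO and 2.47 to 9.66 (median 5.15) in TBT. Here the log2 difference was -0.01 (SE 0.58). In F1 P6 the direction was opposite to that in F1 P4, with 11.4, 28.6, 9.01, 13.3 and 12.9 in DMSO replicates 1, 12, 2, 3 and 4, and 12.1 to 69.4 (median 20.3) in TBT. TBT replicates 10 and 11, at 50.4 and 69.4, were above every DMSO library. As a log2 difference this was 0.89 (SE 0.39, FDR 0.998). In the test of single loci without a filter on low values, the Cyp11a1 loci MLT1B and MLTR73 were called, each at 0.88 (FDR 0.00072), beside 0.00585% of all loci (20 of 342133). In the same libraries the list of Leydig cells and steroid synthesis, on the scale over all 62 libraries, summed to 349 and 415 in TBT replicates 10 and 11, against 255 to 314 in the other TBT libraries. In DMSO it was 316 in replicate 12, which was also the highest in Cyp11a1, and 252 to 282 in the others. TBT replicate 11 was the highest of the 12 libraries in the Sertoli list (1270) and the peritubular and interstitial list (805) and the lowest in the endothelial list (3.59). The part of these lists in the difference was not tested.

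In F3 P6, Cyp11a1 stood at 12.8, 7.95, 12.9 and 8.14 in DMSO and at 5.39, 7.13, 7.29, 6.07 and 8.17 in TBT. Thus 4 of 5 TBT libraries lay below all DMSO libraries. TBT was at a log2 difference of -0.59 (SE 0.20, FDR 0.49). The test of whether the P6 exposure effect differed between the generations gave -1.51 (SE 0.52, F3 minus F1, FDR 0.80). In the tests of P4, P5 and P6, 0 of 8 members passed, beside 0 of 13847, 16015 and 11729 genes.

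**Figure D5:**
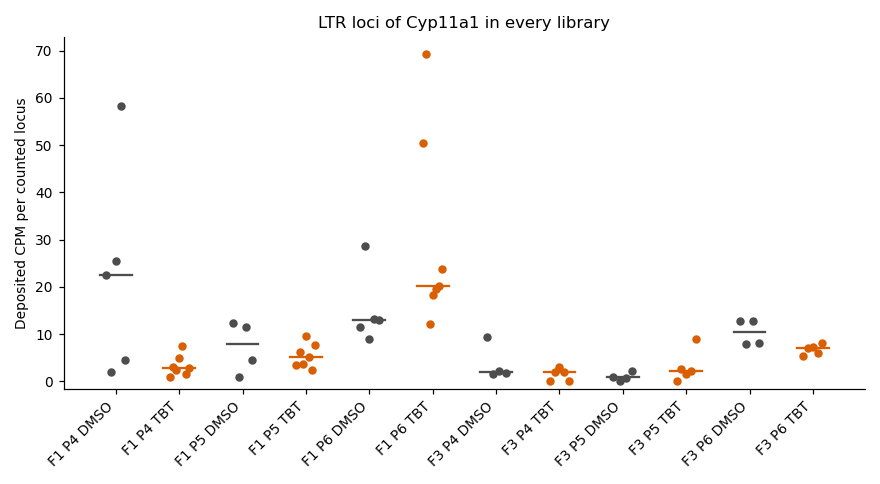
Deposited CPM per counted locus of Cyp11a1 in every library (vertical axis) by population, generation and exposure, with dashes at the medians. In F1 P4 3 of 5 DMSO libraries (22.5, 25.4 and 58.3) lie above the TBT libraries, whereas in F1 P6 the 2 highest are TBT libraries (50.4 and 69.4).

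Gata4 and Nr5a1 were lower in F1 P5 of the TBT group before adjustment. Gata4 stood at 3.87, 6.09, 5.79 and 1.82 CPM per counted locus in DMSO and at 1.403 to 2.98 (median 2.55) in TBT, with a log2 difference of -0.78 (SE 0.31, FDR 0.52). Nr5a1 stood at 3.59, 6.42, 3.10 and 1.51 in DMSO and at 0.824 to 2.74 (median 1.53) in TBT, with -0.98 (SE 0.44, FDR 0.60). In both genes the lowest DMSO library lay among the TBT libraries. The summed level of the other Sertoli genes in these libraries was 50.9, 83.4, 149 and 215 in DMSO, in rising order, and 27.7 to 69.3 in TBT. The peritubular and interstitial list summed to 26.8 to 31.9 in DMSO and 18.1 to 30.8 in TBT. The list of Leydig cells and steroid synthesis summed to 101 to 137 and 92.8 to 109. The part of these lists in the differences was not tested.

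In F3 P6, Scarb1 stood at 50.0, 45.8, 47.2 and 48.6 CPM per counted locus in DMSO and at 43.2, 42.8, 42.7, 36.3 and 46.9 in TBT, of which 4 of 5 lay below all DMSO libraries. The log2 difference was -0.18 (SE 0.08, FDR 0.56). Wt1 was at -0.37 (SE 0.18, FDR 0.60) with 4 of 5 TBT libraries below all DMSO libraries. In the same population the germ cell list summed to 0.661, 1.37, 16.1 and 17.1 in DMSO and 0.946 to 1.41 in TBT, and its part in these values was not tested.

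The other members did not pass in P6 either. In F1 P6 the log2 differences of TBT from DMSO were -0.11 for Gata4, -0.10 for Dmrt1, -0.06 for Nr5a1, -0.18 for Fshr, -0.20 for Wt1, -0.03 for Scarb1 and 0.29 for Lhcgr, each with an FDR of at least 0.998. In F3 P6 they were -0.06 for Gata4, 0.17 for Dmrt1, 0.45 for Fshr (SE 0.34, FDR 0.76) and -0.84 for Lhcgr (SE 0.43, FDR 0.62). In F3 P4 and P5, where the 5 libraries low in germ cell genes stand, Cyp11a1 was at 9.42, 1.63, 2.30 and 1.71 in DMSO P4 and at 0, 1.99, 3.13, 2.02 and 0 in TBT P4, and at 0.985, 0, 0.830 and 2.31 in DMSO P5 and 0, 2.62, 1.61, 2.14 and 9.08 in TBT P5. The groups overlapped. Without the 4 libraries of fewest reads, 0 of 6 members tested were called in F3 P4 and 0 of 8 in F3 P5, and without DMSO replicate 1 of P5 as well 0 of 8 in F3 P5. The share of all genes called in these reduced fits is not given here. With all libraries it was 0 of 13744 genes in F3 P4 and 0 of 15456 in F3 P5.

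No single member locus was called between TBT and DMSO with limma, with 0 of 66, 66 and 99 loci tested in P4, P5 and P6 of F1 and 0 of 62, 58 and 101 in those of F3. At an unadjusted p under 0.05 the numbers were 3, 3, 2, 0, 0 and 17 in that order, beside 7.09%, 6.89%, 3.68%, 1.65%, 1.01% and 7.96% of all loci tested. These loci share reads. Without a filter on low values, 2 loci were called in F1 P6 (the Cyp11a1 loci MLT1B and MLTR73) and 1 in F1 P5 (Gata4 LTR103b_Mam, -0.99, FDR 0.0064), where 0.00585% and 0.202% of all loci were called in that setting. The same Gata4 locus was called in F1 P5 without DMSO replicate 48-4 (-1.29, FDR 0.015), with 0.0498% of all loci called. Of all loci tested with the filter, 0.0106% were called in F1 P5, 0.00341% in F1 P6 and 0.0343% in F3 P6. No gene of the 6 other lists was called in any population.

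The last readout is the methylated DNA of P6 cells, captured with a methyl-CpG binding domain (MBD) protein and counted in windows of 100 bp, which measures the members' DNA directly and does not depend on their RNA. In F1 (3 DMSO and 4 TBT libraries, 701493 to 1913353 counts each), 40 windows lie in 8 members or within 2000 bp upstream of them, 6 of which could be tested, in 4 members. In F3 (5 and 7 libraries, 1105120 to 1556376 counts), 30 windows lie in 7 members, of which 15 could be tested, in 6. None was called with the quasi-likelihood test of edgeR, with 0 at an unadjusted p under 0.05 in either generation, beside 5.05% (F1) and 5.16% (F3) of all windows tested, and 0 called under each alternative. Of all windows tested, 0.0318% were called in F1 (11 of 34559) and 0 of 47563 in F3.

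The window with the highest mean count in F1 members was in Lhcgr, at chr17:88770701-88770800, with a mean of 27.6 counts and a log2 difference of TBT from DMSO of -0.15. In Scarb1, chr5:125279301-125279400 had a mean of 14.0 counts and a difference of 0.64 (FDR 0.98). A window in Cyp11a1, chr9:58019401-58019500, had a mean of 17.7 counts and -0.27, and one in Dmrt1, chr19:25523401-25523500, had 15.6 and 0.23. In F3 the windows of Scarb1 (chr5:125292401-125292500), Cldn11 (chr3:31162801-31162900), Dmrt1 (chr19:25519801-25519900) and Fshr (chr17:89133601-89133700) had mean counts of 37.3, 31.2, 20.3 and 17.8 and differences of -0.09, 0.05, -0.17 and 0.28. They are listed with 7, 3, 4 and 0 CpG sites, so that the Fshr window holds no CpG of its own to be methylated. Cldn11, sparse in RNA, was thus represented in this readout.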

How the data were processed

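RNA of P4, P5 and P6 cells of E18.5 testes (62 libraries) and methylated DNA of P6 cells (19 libraries) were analysed. The authors aligned the trimmed RNA reads with STAR to GRCm38, counted them at RepeatMasker LTR loci with a modified ERVmap, and deposited a normalized signal per locus, CPM after TMM scaling by edgeR. All values above 0 (100%) were whole multiples, within 0.01 read, of the value of 1 read, so that whole reads were recovered. The deposited MBD values are raw counts in windows of 100 bp, made by the authors, and a deposited other column gives the CpG sites of each window. Introns are the gaps between merged exons of GENCODE release M21, numbered from the 5′ end.

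The value of a gene was its sum over counted loci. Levels were tested as log2(sum + 1 unit), 1 unit being the median CPM of 1 read, keeping genes or loci that averaged 5 units or more, by limma 3.58.1 in R 4.3.3 with a trended variance and Benjamini-Hochberg adjustment over all genes or loci at an FDR of 0.05. P6 was compared with germline cells after TMM scaling over the generation, and TBT with DMSO on the deposited CPM within a population. The 1 unit added draws log2 differences of low genes towards 0. They are differences between means of logs, however, and can exceed the log2 ratio of the mean levels. Windows were tested by edgeR 4.0.16 (quasi-likelihood). Alternatives were a pseudocount of 0.25 or 4 units, no filter or a filter at 20 units, library totals, median-ratio scaling, edgeR and DESeq2 1.42.0 on recovered reads, other gene summaries, 1 exposure group alone, a replicate block and each library left out. The tests were tested on simulated data. Tables were handled with the data.table package (1.17.8), pandas 2.3.3 and numpy 2.4.6 in Python 3.11.15, and figures were drawn with matplotlib 3.10.9.

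The members and the lists were chosen with earlier results of these data known. Named are all members, the locus of each with the most reads, the most similar gene, at most 3 genes per list, and the windows of highest count. The table of protein-coding genes was not used here. Counting error and the number of libraries limit the precision.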

Additional observations from a re-analysis of the deposited data

Results flagged for a closer look

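Of 97 groups of 4 to 10 libraries with reads in a member, 14 held a library whose gap to the nearest other library, as a share of the group's range, was above Dixon's critical value. Chance flags about 1 in 20 groups. All values are deposited CPM per counted locus.

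Dmrt1 was high in TBT replicate 45-3 in both germline fractions of F1, at 38.1 in P4 (6614 reads) and 22.7 in P5 (5293 reads), where the next libraries stood at 14.0 and 13.1. The Dmrt1 value of DMSO replicate 48-4 in F1 P5 was low, at 11.6.

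Cyp11a1 was high in DMSO replicate 12 of F1 P6 (28.6, 300 reads), in DMSO replicate 1 of F3 P4 (9.42, 100 reads) and in TBT replicate 9 of F3 P5 (9.08, 93 reads). Lhcgr stood at 4.90 in DMSO replicate 2 of F3 P5, one of the libraries under 2000000 reads (80 reads in Lhcgr), and at 1.60 in TBT replicate 8 of F3 P5 (28 reads).

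Nr5a1 was at 1.71 in DMSO replicate 2 of F3 P4 (7 reads) and at 1.27 in DMSO replicate 4 of F3 P5 (11 reads), whereas it was at 0 in the other DMSO libraries of each group. Fshr was at 0.751 in DMSO replicate 44-1 (91 reads) and 0.153 in TBT replicate 47-3 (18 reads) of F1 P4, and at 0.0419 in TBT replicate 7 of F3 P4 (5 reads). Cldn11 was at 1.03 in TBT replicate 8 of F3 P6 (5 reads).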

How the results depend on the processing

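In F3 P6 against P4 and P5 the fit with the replicate block called 6 members each, as without it, and changed no other call. Samples of the same number in F3 did not deviate together between P6 and the germline. The correlations were -0.019 to 0.017 with P4 and -0.018 to 0.023 with P5, with 0 of 9 pairs above 0.1 in each. Low correlations between different cell populations cannot decide whether samples of the same number came from the same testes. P4 and P5 of the same number correlated above 0.1 in 5 of 11 pairs in F1 and 6 of 9 in F3.

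Counts of members, loci and windows called stayed at 0, or near a main count above 0, under 219 alternatives and 328 fits with 1 library left out. Counts near the main one could still move. For P6 against F3 P5, 6 members called became 7, and 47 loci became 59, without the 4 libraries under 2000000 reads. The larger exceptions were all between TBT and DMSO. The likelihood ratio test of edgeR called 1 member in F1 P4 (Cyp11a1). Without a filter on low values 1 member locus was called in F1 P5 (Gata4 LTR103b_Mam) and 2 in F1 P6 (Cyp11a1 MLT1B and MLTR73). With 1 library left out, the number of loci called in F1 P5 ranged from 0 to 1, the 1 being the same Gata4 locus without DMSO replicate 48-4. The cause was not tested.

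Single log2 differences turned sign as follows. With DMSO libraries alone, Cyp11a1 in F1 was at -0.02 (FDR 0.98) for P6 against P4, and Lhcgr at -0.22 (FDR 0.80) against P5. For P6 against P4 in F3, Lhcgr was at -0.15 with a pseudocount of 4 units, -1.11 with the quasi-likelihood test of edgeR, -0.52 with the highest locus, and -0.0233 without the 4 libraries under 2000000 reads, an alternative chosen after seeing the data, and Dmrt1 was at -0.17 with the quasi-likelihood test. Without DMSO replicate 1 of P5 as well, also chosen after seeing the data, Lhcgr was at -0.0513 against P4 and Dmrt1 at -0.492 against P5, where fits without 1 library reached 1.85. Against P5, Lhcgr was at -0.57 with the quasi-likelihood test. For TBT against DMSO, Scarb1 in F1 P4 was at -0.0236 with library totals, Cyp11a1 in F1 P5 at 0.0008 with a pseudocount of 0.25 units, Fshr in F1 P6 at 0.0169 and Dmrt1 in F3 P6 at -0.12 with the highest locus, and Nr5a1 in F3 P6 at -0.0148 with median-ratio scaling. With 1 library left out, sign changes lay within -0.514 to 0.695 for Lhcgr (F3, P6 against P4), -0.0661 to 0.161 for Scarb1 (F1 P4), -0.791 to 0.426 for Cyp11a1 (F1 P5), -0.294 to 0.575 for Lhcgr, -0.121 to 0.0142 for Nr5a1 and -0.0746 to 0.0069 for Scarb1 (F1 P6), and -0.110 to 0.372 for Dmrt1 and -0.0334 to 0.0546 for Nr5a1 (F3 P6).

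Calls of single members against the germline depended on the setting in both generations. In F3, Dmrt1 passed against P4 with median-ratio scaling (4.09, FDR 0.026), and Cyp11a1 did not pass with the quasi-likelihood test (1.63, FDR 0.052). Against P5, Scarb1 did not pass with a pseudocount of 0.25 units (4.01, FDR 0.051) or without DMSO replicate 2 of P5 (3.14, FDR 0.072), and Lhcgr passed without that library (2.32, FDR 0.046). In F1, Cyp11a1 did not pass against P5 with DMSO libraries alone (1.17, FDR 0.25), and Lhcgr passed against P4 without DMSO replicate 2 of P6 (1.16, FDR 0.0316). Exposure differences of F3 P4 and P5 are not given per member, since their sign changed in 22 of 110 and 33 of 135 fits.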
